A study of Mus musculus with 2 samples.

Results

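The V(D)J recombinase and end-joining genes are the 10 genes Rag1, Rag2, Dntt, Lig4, Prkdc, Xrcc4, Xrcc5, Xrcc6, Dclre1c and Nhej1. They were found by symbol, after each gene ID without its version had been matched to the GENCODE M21 annotation of GRCm38. All 10 were present among the 43346 mouse genes tabulated. The samples were 2 thymus libraries of strain B6NCrl, taken at postnatal day 0 (age 0 day), one from pup 6 (replicate 1) and one from pup 7 (replicate 2) of a C57/Bl6 female supplied by Charles River. Each library started from 13 pg of total RNA above 200 nt, stated as 1 cell-equivalent, with spike-in RNA added. The labels name no genotype, treatment or sex, give both pups the same donor identifier and describe the assay as single cell RNA-seq, although the RNA was extracted from tissue. With 1 group there was no comparison between conditions, so each value is given for both libraries, with the SD over the 2, and no difference between them carries a p-value. The spread may be technical in part, and in RNA from whole tissue fewer cells of a type and less RNA per cell cannot be told apart.

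V(D)J recombination builds the antigen receptor genes of developing T and B cells by cutting and rejoining gene segments. Rag1 and Rag2 form the recombinase, which cuts at recombination signal sequences and leaves hairpins at the ends of the coding segments. The Ku dimer (Xrcc6 encodes Ku70 and Xrcc5 encodes Ku80) binds the broken ends and helps recruit DNA-PKcs (Prkdc), and DNA-PKcs activates Artemis (Dclre1c), the nuclease that opens the hairpins. Dntt encodes TdT, a polymerase that adds nucleotides without a template to the opened ends, and Lig4, Xrcc4 and Nhej1 (XLF) seal them. Rag1, Rag2 and Dntt are largely restricted to developing lymphocytes, whereas the other 7 genes take part in double-strand break repair in most cell types.

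Expected counts, the deposited estimates of reads per gene, summed to 25999043 over mouse genes in replicate 1 and 31902773 in replicate 2. Of the mouse genes, 10275 and 11764 were read, meaning that they had at least 1 expected count, and 13791 were read in either library. Levels below are TPM, a measure of transcripts corrected for length and depth, rescaled to sum to 1000000 over mouse genes. As a check of the labelled tissue, all 9 of the 9 thymocyte markers were read in both libraries and summed to 5559 and 5269 TPM, and 7 of 8 thymic epithelial markers were read in both, with sums of 2988 and 2955 TPM.

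Because the 10 genes divide into a lymphoid-restricted and a broadly used set, the DNA just before their start sites is shown first for Rag1, Rag2 and Dntt and, from the other set, for Lig4. The 250 bases before each start site come from RefSeq (GRCm38.p6), run 5′ to 3′ on the gene's strand, and have every CG dinucleotide in capitals. None of the 4 stretches holds an annotated exon of any gene. They lie at chr2:101649533-101649782 (minus strand, Rag1), chr2:101624462-101624711 (plus strand, Rag2), chr19:41029025-41029274 (plus strand, Dntt) and chr8:9976312-9976561 (minus strand, Lig4).
Rag1: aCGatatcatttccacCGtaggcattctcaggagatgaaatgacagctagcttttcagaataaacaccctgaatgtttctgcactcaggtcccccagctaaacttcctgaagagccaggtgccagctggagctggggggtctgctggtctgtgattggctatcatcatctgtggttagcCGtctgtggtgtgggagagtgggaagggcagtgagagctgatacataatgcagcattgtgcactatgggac
Rag2: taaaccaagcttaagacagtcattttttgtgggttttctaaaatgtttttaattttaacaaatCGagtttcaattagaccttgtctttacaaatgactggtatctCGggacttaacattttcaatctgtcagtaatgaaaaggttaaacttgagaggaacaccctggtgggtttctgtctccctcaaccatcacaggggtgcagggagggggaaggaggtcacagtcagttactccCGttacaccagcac
Dntt: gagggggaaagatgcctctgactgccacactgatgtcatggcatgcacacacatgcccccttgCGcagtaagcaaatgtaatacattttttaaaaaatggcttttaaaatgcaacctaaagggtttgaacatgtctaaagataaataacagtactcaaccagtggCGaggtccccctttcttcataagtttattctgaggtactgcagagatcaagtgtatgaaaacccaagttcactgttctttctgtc
Lig4: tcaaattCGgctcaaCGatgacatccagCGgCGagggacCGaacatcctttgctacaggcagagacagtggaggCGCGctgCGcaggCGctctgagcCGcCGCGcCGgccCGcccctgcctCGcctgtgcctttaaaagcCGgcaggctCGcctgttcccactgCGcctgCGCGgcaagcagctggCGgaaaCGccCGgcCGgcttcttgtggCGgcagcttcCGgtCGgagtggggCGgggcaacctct

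Few capitals appear in the first 3 sequences and many in the last. Over 300 bases, 250 before the start site and 50 after it, Rag1 held 3 CG dinucleotides, Rag2 held 3 and Dntt held 2. Lig4 held 29, Xrcc6 held 30 and Xrcc4 held 31, while Xrcc5 held 9, Nhej1 held 10 and Dclre1c held 12. The median of 32841 RefSeq start sites was 7, with quartiles of 3 and 20. The 3 lymphoid genes therefore lay at or below the lower quartile, the 6 end-joining genes with an entry lay above the median, and 3 of those 6 lay above the upper quartile. Prkdc had no entry in the table.

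**Figure D1:**
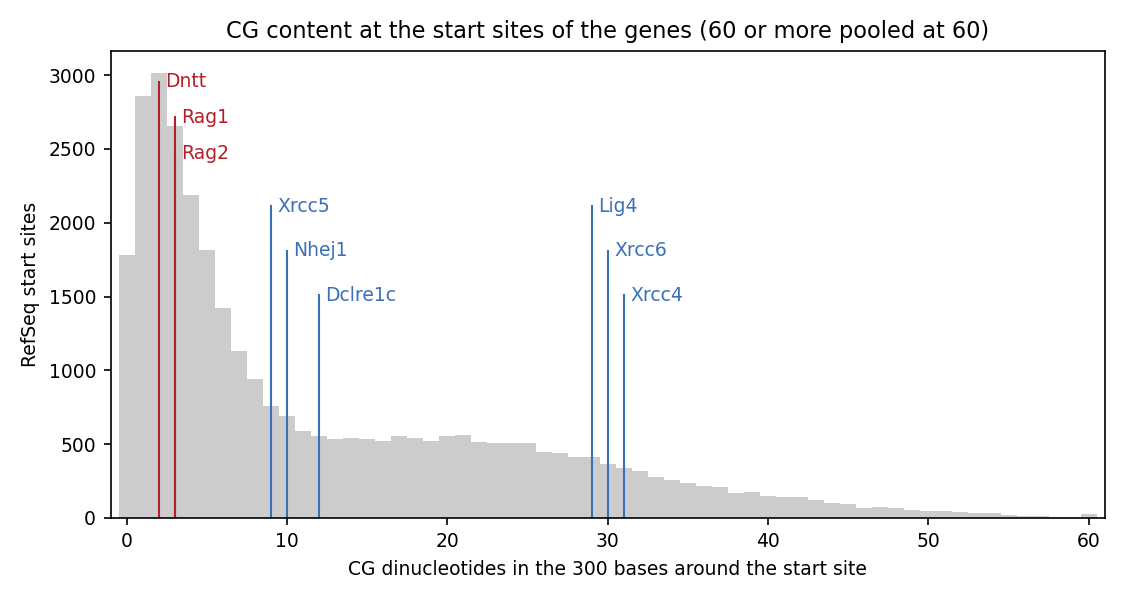
Grey bars count RefSeq start sites (vertical axis) by the number of CG dinucleotides in the 300 bases around them (horizontal axis, values of 60 or more pooled at 60). Vertical lines mark Rag1, Rag2 and Dntt in red, at 2 or 3, and the 6 end-joining genes with an entry in blue, at 9 to 31; line heights carry no meaning.

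GC content of the same 300-base windows was 50% for Rag1, 43% for Rag2 and 42.3% for Dntt, against 67.3% for Lig4, 65.7% for Xrcc4 and 64.3% for Xrcc6. Dclre1c was at 56.3%, Nhej1 at 50.7% and Xrcc5 at 48%, and the median over all windows was 52.7%. Short words were searched on both strands. GGGCGG, the core of a GC box, was absent from the windows of Rag1, Rag2 and Dntt and present in 5 of the 6 others, all but Xrcc5, and 35.7% of all windows hold it. The E-box word CANNTG occurred 4 times at Rag1, 3 times at Dntt and 2 times at Rag2, was absent only at Xrcc4 among the 9 windows, and is held by 72.3% of all windows. CCAAT was found at Rag1, Xrcc5, Xrcc6 and Dclre1c (37.4% of all windows hold it), and GATAA at Dntt and Nhej1 (25.4%). Neither TATAAA (13.6% of windows) nor GTAAACA (3.65%) occurred in any of the 9. These matches are letters in a window and say nothing of binding in these samples. The RefSeq start lay 31 bases from the start of the leading transcript for Rag1, 34 for Rag2, 107 for Dntt and 12 for Lig4. For Nhej1 it lay 78587 bases away, so that window may not be the promoter of the transcript read here. Among the stretches before the start site that are not printed, that of Xrcc4 held exons of Tmem167. That of Xrcc6 held exons of Desi1 and of Xrcc6 itself.

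The other sequence that bears on the results is an exon of Dntt. The annotation has 2 coding transcripts, Dntt-201 with 12 exons and 1590 coding bases and Dntt-202 with 11 exons and 1530. They differ in a coding exon of 60 bases, or 20 codons, exon 11 of Dntt-201, at chr19:41058567-41058626 on the plus strand. Both junctions are printed 5′ to 3′ from the GENCODE M21 transcripts (GRCm38), with the exon in capitals and 15 bases of the neighbouring exons on each side.
Dntt-201: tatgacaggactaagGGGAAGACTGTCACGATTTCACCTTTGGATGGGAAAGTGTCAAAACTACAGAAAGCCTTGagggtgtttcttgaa
Dntt-202: tatgacaggactaagagggtgtttcttgaa

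The 10 genes summed to 585 TPM in replicate 1 and 1112 TPM in replicate 2, a mean of 849 ± 372 (SD, n = 2). They took 0.127% and 0.246% of the counts in mouse genes. Of the 10, 6 were read in both libraries and 4 had reads in replicate 2 alone, namely Dclre1c, Prkdc, Nhej1 and Xrcc4. None was read in replicate 1 only. Among all mouse genes read in either library, 59.8% were read in both, so the share of the 10 genes was near that of genes in general.

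By mean level Xrcc6 came first, at 409 ± 177 TPM (SD, n = 2), and Rag1 second, at 169 ± 72.6. The ranges of these neighbours over the 2 libraries did not overlap, nor did those of Rag1 and the next gene, Lig4, at 62.4 ± 64.1. Below that every pair of neighbours overlapped: Lig4 with Xrcc5 (61.5 ± 35.2), then Rag2 (57.3 ± 18.6), Dntt (52.7 ± 9.01), Nhej1 (23.7 ± 33.6), Xrcc4 (12.4 ± 17.5), and last Prkdc and Dclre1c, each at 0.123 ± 0.174. Xrcc6 and Rag1 held the first and second places in each library. In replicate 1 Rag2 and Dntt came next, at places 3 and 4, whereas in replicate 2 they stood behind Lig4, Xrcc5 and Nhej1.

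**Figure D2:**
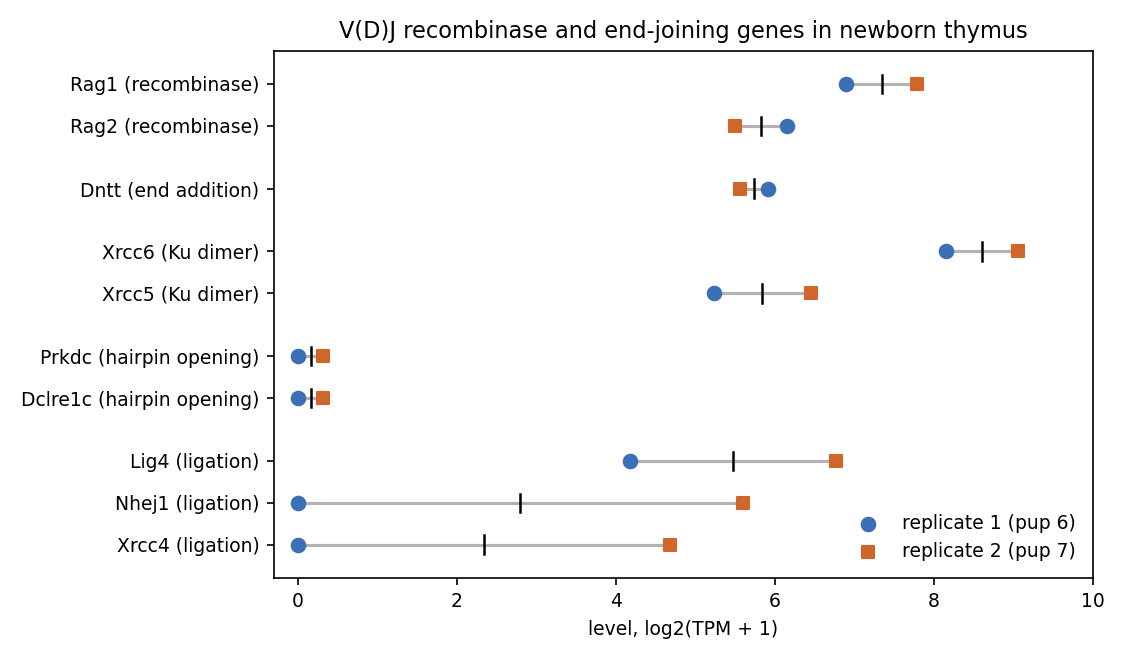
Each row is 1 gene, grouped by role, with its level as log2(TPM + 1) on the horizontal axis; circles are replicate 1, squares replicate 2, and the tick marks their midpoint. Xrcc6 and Rag1 lie farthest right in both libraries, Rag2 and Dntt are the genes with the circle to the right of the square, and 4 genes have their circle at 0.

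The recombinase genes were both read in both pups, with Rag1 above Rag2. Rag1, the subunit that carries the catalytic site, was at 118 TPM in replicate 1 and 221 TPM in replicate 2, from 15678 and 33146 expected counts. It ranked 1693rd and 858th among mouse genes by TPM. The higher level of Rag1 lay in replicate 2, 1.87-fold above replicate 1. Rag2, the partner subunit that the complex needs for cutting, was at 70.5 and 44.1 TPM, from 3013.49 and 2237.47 counts, so its higher level lay in replicate 1, by 1.60-fold. The deposited intervals for Rag2, rescaled by the same factor as TPM and covering estimation within a library only, were 66.1 to 71.5 and 41.1 to 45.2. They did not overlap. Such intervals need not hold the TPM given here: those of Rag1, 113 to 117 and 213 to 218, lay below its TPM in both libraries. The ratio of Rag1 to Rag2 was accordingly 1.67 in replicate 1 and 5.00 in replicate 2. Their summed level moved less, from 188 to 265 TPM (227 ± 54.0).

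The recombinase genes face each other on chromosome 2, with Rag2 at 101624718-101632529 on the plus strand, Rag1 at 101638282-101649501 on the minus strand, and 5752 bases between their ends. Another gene, B230118H07Rik, spans both (101560781-101649532, minus strand) and was at 119 and 83.8 TPM. Its counts, 2110.51 and 1802.53, and those of Rag2 were not whole numbers, but they added to 5124 and 4040 within 0.015 of a count. Counts of Rag1 were whole. The levels of Rag2 and B230118H07Rik thus include reads whose division between them was estimated, and whether counting used strand is not given in the sources used here. Rag1 gave all its reads to 1 transcript, Rag1-201, of 6608 bases with 2 exons, only 1 of them coding. Rag2 had 2 transcripts with the same 1581 coding bases in 1 exon: Rag2-202 carried 78.63% and 72.06% of the gene's level, at 55.4 and 31.8 TPM, and Rag2-201, with 1 more exon outside the coding sequence, carried 21.37% and 27.94%, at 15.1 and 12.3 TPM.

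Dntt was read at close levels in both pups and in its short form. It was at 59.1 TPM in replicate 1 and 46.3 TPM in replicate 2, from 2377 and 2107 counts, and ranked 3266th and 4009th. The difference, 1.28-fold in favour of replicate 1, was the smallest among the 6 genes read in both libraries. The deposited intervals, 55.4 to 60.1 and 43.4 to 47.3 TPM, did not overlap. Every count went to Dntt-202, the form without the 60-base exon printed above. The posterior mean estimates, a second set of deposited values, left 0.519% and 0.518% of the gene's level to Dntt-201, from 11.6 and 10.5 estimated counts. Rag2 and Dntt stood at a ratio of 1.19 in replicate 1 and 0.952 in replicate 2 (1.07 ± 0.170), while Rag1 stood 2.00 and 4.76 times above Dntt.

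Against the summed thymocyte markers, Dntt amounted to 1.06% and 0.880%, Rag2 to 1.27% and 0.838%, and Rag1 to 2.12% and 4.19%. B cell precursors also use these 3 genes. Of 8 B-lineage markers, 0 were read in both libraries, the list summed to 0.738 and 58.3 TPM, and Pax5 and Igll1 were at 0 counts in both. Nearly all of the second sum came from Cd79b, a signalling chain of the B cell receptor, at 0 and 1527 counts. Vpreb1, a surrogate light chain gene, had 12 counts in replicate 1 and 0 in replicate 2. The level of Rag1 moved with Cd79b between the libraries and the levels of Rag2 and Dntt did not, and the part of B-lineage RNA in these values was not tested.

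Both Ku genes were read in both pups and were higher in replicate 2, and Xrcc6 had the highest level of the end-joining genes. Xrcc6 (chromosome 15, 81987835-82040085, plus strand) was at 284 and 534 TPM, from 8789.20 and 24344.48 counts, a 1.88-fold difference. It ranked 617th and 299th among mouse genes. Xrcc5 (chromosome 1, 72307421-72394952, plus strand) was at 36.6 and 86.4 TPM, from 1835 and 4899 counts, a 2.36-fold difference, all on the single transcript Xrcc5-201 of 21 exons. Although their products pair one to one, Xrcc6 exceeded Xrcc5 by 7.78-fold in replicate 1 and 6.18-fold in replicate 2 (6.98 ± 1.13). The Ku genes together held 54.8% and 55.8% of the summed level of the 10 genes.

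Part of the excess of Xrcc6 lay in transcripts other than the main one. Xrcc6 has 11 annotated transcripts, of which 10 were read in either library, and Xrcc6-201, with 13 exons and 1824 coding bases, led in both at 185 and 447 TPM (65.07% and 83.67% of the gene). Set against Xrcc5, Xrcc6-201 alone gave ratios of 5.06 and 5.17 (5.12 ± 0.0799), closer together than the ratios of the whole genes. Xrcc6-202, which has the same coding length, was at 1.27 and 39.9 TPM. Shorter transcripts differed in kind between the pups: Xrcc6-207 was at 31.7 and 0 TPM, Xrcc6-208 at 29.2 and 1.93, Xrcc6-205 at 13.1 and 0, and Xrcc6-211 at 0.118 and 22.5. Xrcc6-203 was at 21.6 and 13.9 TPM, Xrcc6-209 at 1.37 and 6.47, and Xrcc6-206 at 0.984 and 2.36. By type, the 5 protein-coding transcripts held 77.2% and 92.4% of the gene, the 4 with a retained intron 18.2% and 7.61%, and the 2 processed transcripts 4.60% and 0.0320%. Desi1, on the opposite strand, overlaps Xrcc6 along 41340 bases and was at 113 and 153 TPM. The counts of Xrcc6 and Desi1, each fractional, added to 15288 and 34076 within 0.015 of a count, so the reads of this pair were also divided by estimate.

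The hairpin-opening genes were the least read. Prkdc (chromosome 16, 15637866-15842235, plus strand), whose main transcript has 86 exons and 12647 bases, had 0 counts in replicate 1 and 72 in replicate 2 (exact 95% Poisson interval 56.3 to 90.7, counting error only), which made 0.246 TPM. Dclre1c (chromosome 2, 3424131-3464130, plus strand) had 0 and 40 counts (28.6 to 54.5), also 0.246 TPM, all on Dclre1c-201 out of 9 annotated transcripts. A count of 0 in replicate 1 allows up to 3 counts, or 0.0117 TPM for Prkdc and 0.0210 TPM for Dclre1c. These limits cover counting error only, and in the tables reads carry no molecular identifiers. The deposited posterior means were above those floors in replicate 1. For Prkdc they were 0.0214 and 0.256 TPM, and the deposited intervals, up to 0.0529 in replicate 1 and from 0.200 in replicate 2, did not overlap. For Dclre1c they were 0.449 and 0.640 TPM, with intervals of 0.128 to 0.814 and 0.343 to 0.980 that overlapped. In replicate 1, however, the posterior mean count was 0 on every transcript of both genes. The largest Dclre1c value there, 0.118 TPM, was on its shortest transcript, Dclre1c-209, of 523 bases. These replicate 1 levels thus rest on no estimated reads, and the overlap does not show a like level in the 2 libraries. Of all genes with a mean of 0 to 1 TPM, 72.6% were read in 1 library only, as both Prkdc and Dclre1c were.

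The ligation genes were all higher in replicate 2, and 2 of the 3 had no reads in replicate 1. Lig4, the ligase itself (chromosome 8, 9969049-9977686, minus strand), was at 17.1 TPM in replicate 1 and 108 TPM in replicate 2, from 1390 and 9903 counts. It was 6.30-fold higher in replicate 2, and its rank moved from 5716th to 1951st. All its reads lay on Lig4-201, with 2 exons and the 2733 coding bases in 1 of them. Xrcc4 (chromosome 13, 89774027-90089608, minus strand), the scaffold that binds and stabilises the ligase, had 0 and 823 counts, or 0 and 24.7 TPM. Nhej1 (chromosome 1, 74967139-75125200, minus strand), the XRCC4-like factor that bridges the ends, had 0 and 1046 counts, or 0 and 47.5 TPM.

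The floor of 3 counts was up to 0.102 TPM for Xrcc4 and 0.154 TPM for Nhej1 in replicate 1. The levels of both genes in replicate 2 were far above it. That floor covers counting error only, and of genes at 10 to 25 mean TPM, 45.3% were read in 1 library only. The posterior means were 0.395 and 24.5 TPM for Xrcc4, with a deposited interval in replicate 1 of 0.0364 to 0.905 that reached above the floor, and 0.0534 and 46.4 TPM for Nhej1, with an interval up to 0.150. In replicate 1 the posterior mean count was 0.03 on Xrcc4-201 and 0 on the other Xrcc4 transcripts and on Nhej1. Those replicate 1 levels thus rest on almost no estimated reads. The ligation genes summed to 17.1 and 180 TPM (98.5 ± 115), a 10.5-fold difference, and their share of the 10 genes went from 2.92% to 16.2%. In replicate 2, where the complex was fully read, Lig4 stood 4.35-fold above Xrcc4 and 2.27-fold above Nhej1, and Nhej1 stood 1.92-fold above Xrcc4. The level of Nhej1 per length depends on a partial gene model: the annotation tags the locus as fragmented, its transcript Nhej1-201 has 1053 bases and 495 coding bases, and the RefSeq start lies 78587 bases from its 5′ end. Tmem167 overlaps the start of Xrcc4 by 486 bases on the opposite strand and was read in both pups, at 45.8 and 74.9 TPM, while the counts of Xrcc4 were whole.

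**Figure D3:**
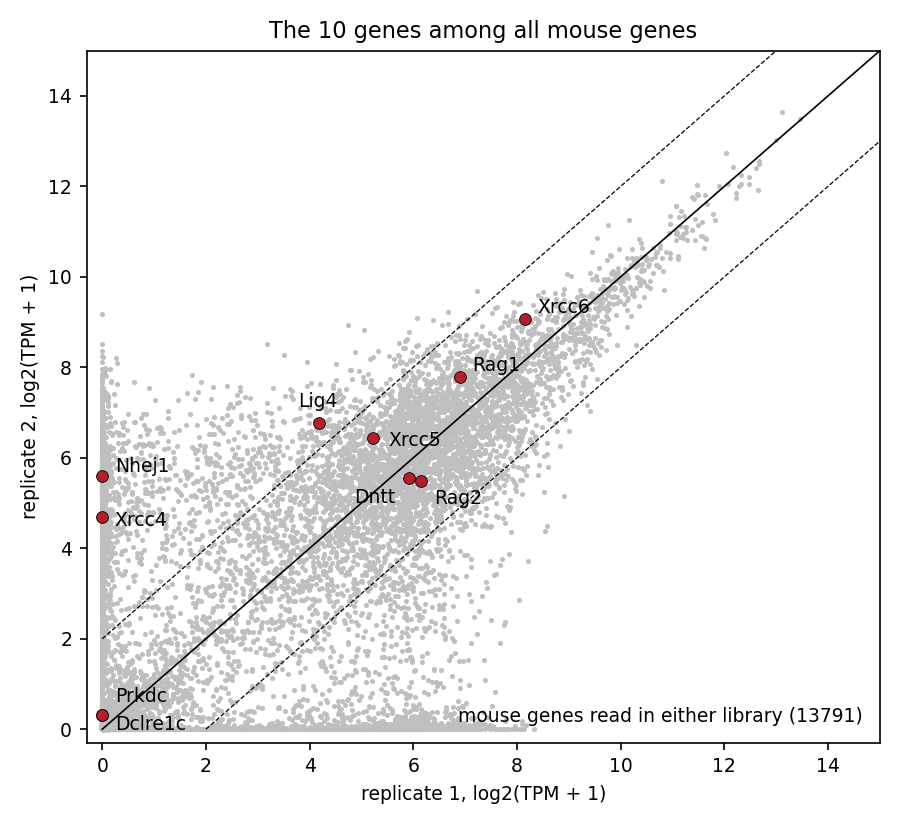
Each grey point is 1 of the 13791 mouse genes read in either library, with log2(TPM + 1) in replicate 1 on the horizontal and in replicate 2 on the vertical axis; the solid line is equality and the dashed lines mark 4-fold. Of the 10 genes (red), Lig4, Nhej1 and Xrcc4 lie above the upper dashed line and none lies below the lower one.

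To set these differences against the spread between the libraries as a whole, the log2 ratio of replicate 2 over replicate 1 was taken on TPM with a pseudocount of 1, which understates the change of low genes. The ratio was 2.59 for Lig4, 5.60 for Nhej1, 4.69 for Xrcc4, 1.22 for Xrcc5, 0.91 for Xrcc6, 0.90 for Rag1, -0.34 for Dntt and -0.66 for Rag2. For Prkdc and Dclre1c it was 0.32, and at 0.246 TPM neither could reach 4-fold on this scale. Thus 3 of the 10 genes lay at least 4-fold apart, all higher in replicate 2. Of all mouse genes read in either library, 37.5% lay at least 4-fold apart, 21.5% higher in replicate 2 and 16% higher in replicate 1. A share of 3 in 10 is near this background.

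The median ratio of the 10 genes was 0.90, as was that of the 6 read in both libraries, against 0.05 over all genes read in either and -0.02 over all read in both. Of those 6, 4 were higher in replicate 2 (Rag1, Xrcc6, Xrcc5 and Lig4), and of all genes read in both, 48.1% were. The genes were chosen with earlier values known, and a median of so few genes in 2 libraries describes these libraries only.

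The spread depended on level, so each gene was also placed among genes of like mean TPM. Of genes at 10 to 25 TPM, where Nhej1 and Xrcc4 lay, 75.4% were at least 4-fold apart and 45.3% were read in 1 library only. Of genes at 50 to 100 TPM, which hold Lig4, Xrcc5, Rag2 and Dntt, 31.5% were at least 4-fold apart and 8.91% were read in 1 library only. Lig4 was the 1 of these 4 past 4-fold. At 100 to 250 TPM, the class of Rag1, 14.5% were at least 4-fold apart, and at 250 to 500 TPM, the class of Xrcc6, 4.95% were. Rag1 and Xrcc6 were not among them.

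**Figure D4:**
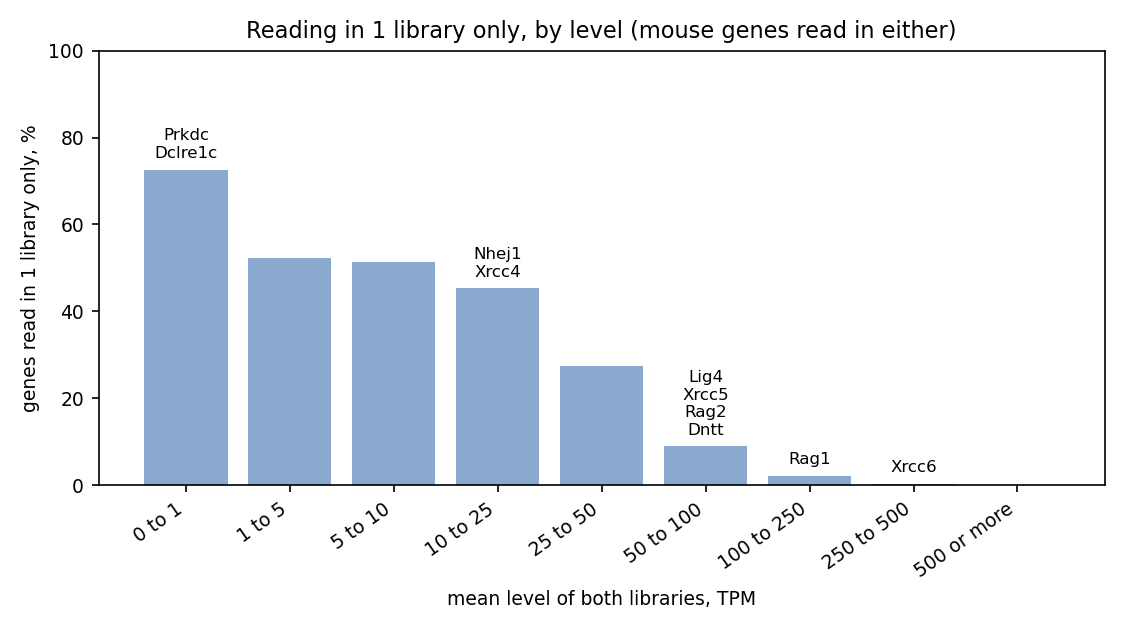
Bars give the percentage of mouse genes read in 1 library only (vertical axis) among genes read in either, by mean TPM of both libraries (horizontal axis), with the 10 genes named above their class. The share falls from 72.6% at 0 to 1 TPM to 0% at 500 TPM or more, and the 4 genes read in replicate 2 only fall in classes at 72.6% and 45.3%.

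Grouped by use, the lymphoid genes differed less in sum than the repair genes. Rag1, Rag2 and Dntt summed to 247 and 311 TPM (279 ± 44.9), a 1.26-fold difference, and the 7 end-joining genes to 338 and 801 TPM (569 ± 327), a 2.37-fold difference. The first sum hides opposite directions. Rag1 was 1.87-fold higher in replicate 2, while Rag2 was 1.60-fold and Dntt 1.28-fold higher in replicate 1. Xrcc6, the largest part of the second sum, differed 1.88-fold, about as much as Rag1. Markers of other cells also moved between the libraries. The 6 erythroid markers, globins first, summed to 3527 and 9132 TPM, endothelial markers to 290 and 121, muscle markers to 1236 and 372, macrophage and dendritic markers to 448 and 691, and mesenchymal markers to 1338 and 1130. Within the endothelial, macrophage and mesenchymal lists, genes moved in both directions. Of the macrophage and dendritic markers, 1 was at least 4-fold higher in replicate 2 (21.5% of all genes) and 2 in replicate 1 (16%). Of the endothelial markers, 1 was so in each direction. All 6 cycling-cell markers were read in both, at 1420 and 1236 TPM in sum. Replicate 2 also had the larger total count. With its counts thinned to the total of replicate 1, 6 of the 10 genes were read in both and 3 lay at least 4-fold apart. Thinning replicate 2 cannot add reads to replicate 1, so the part of depth in the genes unread there was not tested. The part of the cell markers in the higher levels of the end-joining genes was not tested.

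Beyond the 10 genes, 69 names were listed by their place around the reaction, and 66 were found in the tables. Of these, 44 were read in both libraries, 4 in replicate 1 only, 14 in replicate 2 only and 4 in neither. Of all mouse genes read in either library, a base that leaves out genes read in neither, 59.8% were read in both. Reads in replicate 2 alone were also the commoner case over all mouse genes, with 11764 read in replicate 2 and 10275 in replicate 1. At least 4-fold apart were 24 of the 66 list genes, with 15 higher in replicate 2 and 9 higher in replicate 1. Over all mouse genes read in either library the corresponding shares were 37.5%, 21.5% and 16%, so the lists lay near the background in both directions.

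Among 9 other end-joining genes, 3 were read in both libraries. Paxx, which helps Ku at broken ends, was at 113 and 46.5 TPM. Aptx, which removes AMP from failed ligations, had 0 and 2578 counts (0 and 78.3 TPM), and Poll, a gap-filling polymerase, had 0 and 2316 counts (0 and 45.1 TPM). Cyren, a regulator of end joining, went the other way, with 761 and 0 counts. Polm, a polymerase related to TdT, and Tdp1 were read in neither library. The sum of the list was 175 and 252 TPM.

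Break-signalling genes summed to 988 and 505 TPM, lower in replicate 2, and 11 of 16 were read in both. Atm, the kinase that senses double-strand breaks, was at 46.2 and 0.0427 TPM (1108 and 1 counts), and Mre11a, a nuclease that acts with it, at 130 and 0.0107 TPM (1485 and 1 counts). Its partners Nbn and Rad50 were at 43.0 and 40.1 TPM and at 18.7 and 43.8 TPM. The break-marking histone H2afx was at 220 and 44.4 TPM and the ligase Rnf8 at 123 and 29.3, log2 ratios of -2.28 and -2.04. Trp53 was at 278 and 162 TPM. Trp53bp1, which protects ends from resection, had 0 and 2072 counts, and Shld2, which acts with it, 0 and 1017. In all, 4 genes were at least 4-fold higher in replicate 1 and 3 in replicate 2, against 16% and 21.5% of all genes.

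The alternative end-joining list was read in both libraries for 5 of 7 genes and summed to 593 and 408 TPM. Lig1, the replication ligase, was at 253 and 37.6 TPM, opposite in direction to Lig4, and Lig3 had 0 and 2498 counts (0 and 66.6 TPM). Parp1, which detects breaks, was at 202 and 75.3 TPM, Fen1, a flap nuclease, at 30.7 and 130, and Rbbp8, which starts resection, had 0 and 2471 counts. Of the 9 homologous recombination genes, 2 were read in both, among them Rad52 at 101 and 174 TPM. Rad54l, Xrcc2 and Xrcc3 were read in replicate 2 only, with 4282, 2699 and 602 counts. Brca1 and Bard1, which form a dimer, were read in replicate 1 only, with 893 and 216 counts.

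The DNA-bending cofactors of the recombinase, Hmgb1 and Hmgb2, were at 2370 and 1867 TPM and at 474 and 410 TPM. All 10 transcription factors linked to the Rag locus had at least 1 count in both libraries, with a summed level of 1109 and 1356 TPM. Foxo1 passed that minimum with only 1 and 9 counts (0.0107 and 0.0427 TPM). Satb1, a chromatin organiser, was at 263 and 292 TPM, and Ets1, a factor of lymphocyte development, at 208 and 328. Lower in replicate 2 by at least 4-fold were the E protein gene Tcf3, at 109 and 2.87 TPM, and Runx1, at 41.3 and 6.90, whereas Tcf12, another E protein gene, was at 66.0 and 175.

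Genes tied to the timed breakdown and import of the recombinase proteins were 5, of which 3 were at least 4-fold higher in replicate 2, a change found in 21.5% of all genes, and none was at least 4-fold higher in replicate 1 (16% of all genes). Cdk2, the kinase that marks RAG2 for degradation, was at 27.1 and 212 TPM, Skp2, a ubiquitin ligase subunit, had 0 and 2409 counts, and Dcaf1, which mediates RAG1 turnover, had 1 and 1477 counts. Ccna2, the cyclin partner of Cdk2, was at 376 and 223 TPM and Kpna1, an importin that binds RAG1, at 35.8 and 54.3. The 4 neighbours of the Rag genes found on chromosome 2 were all lower in replicate 2. Commd9 was at 198 and 58.7 TPM, Traf6 at 144 and 39.4, and Prr5l had only 16 and 0 counts. The 4th was B230118H07Rik, whose reads were divided with Rag2 by estimate. None was lower by 4-fold on the scale with a pseudocount of 1. Of all mouse genes read in both libraries, 48.1% were higher in replicate 2, so a lower level there was common.

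The receptor constant genes Trbc2, Trbc1 and Trac, from loci that the recombinase acts on, were steady, as was Ptcra, which was listed with them. Trbc2 was at 6500 and 6037 TPM, Trbc1 at 3150 and 3565, Trac at 853 and 844, and Ptcra, the partner of the beta chain before the alpha chain is made, at 71.1 and 57.0. The list summed to 10574 and 10503 TPM, and none of the 4 genes lay 4-fold apart.

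**Figure D5:**
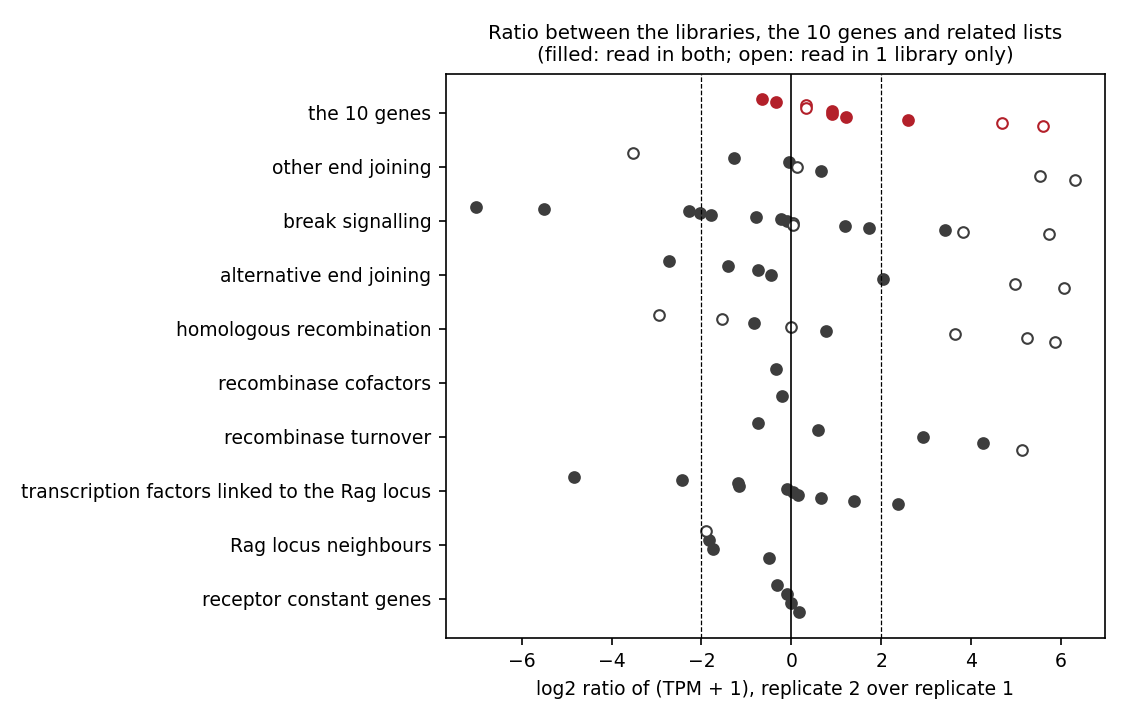
Each point is 1 gene, with its log2 ratio of TPM + 1, replicate 2 over replicate 1, on the horizontal axis and 1 row per list; filled points were read in both libraries, open points in 1, and dashed lines mark 4-fold. The 10 genes (red) reach 5.60 on the right and only -0.66 on the left, while break signalling spreads to both sides and receptor constant genes stay near 0.

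The protein-coding genes closest in level over the 2 libraries, by Euclidean distance in log2(TPM + 1), were Cnot2 (116 and 216 TPM, distance 0.04) and Serp1 (113 and 222, 0.06) for Rag1. Closest to Dntt were Clec4n (59.2 and 46.5, distance 0.01) and Rexo1 (58.8 and 46.1, 0.01), and closest to Xrcc6 were Capzb (278 and 542, 0.04) and Uqcrc1 (276 and 552, 0.06). With 2 libraries such closeness fixes only a pair of levels.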

How the data were processed

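Each thymus library has a gene and a transcript table. The deposited tables give, per the file headers, expected counts (estimates that need not be whole), TPM, posterior means of both, bounds of an interval for TPM (used here as a signal) and the percent of a gene's level on each transcript. The authors' assembly was mm10, per the labels, and the annotation M4, per the deposited notes. Which aligner and quantifier were used is not given in the sources used here.

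Libraries held 27003123 and 32980032 expected counts, spike-ins (3.72% and 3.27%) and 26249 further non-mouse entries included. Those entries were set aside and TPM was rescaled to 1000000 over 43346 mouse genes, 42462 of which matched GENCODE M21. Promoters of 9 of the 10 genes were matched in RefSeq (GRCm38.p6) by symbol, taking the entry nearest to the leading transcript's start. Levels are mean ± SD of the 2 replicates named in the labels. Floors of 3 counts and exact 95% Poisson intervals cover counting error only. All 10 genes are named, with up to 3 genes of each list by mean TPM, list genes absent from 1 library but at 10 or more counts in the second, and transcripts at 1 TPM or more. Rag1, Dntt and Xrcc6 have their 2 nearest genes named. Mre11a, Nbn, Rad50, Atm, Polm, Tdp1, Dcaf1, Tcf3, Tcf12, Runx1, Foxo1 and Ptcra fall outside that rule and were named after their values were seen. Some list genes are not reported here. The genes and lists were chosen with earlier results of these data known. Calculations used Python 3.11.15, pandas 2.3.3 and numpy 2.4.6, and were tested on simulated data. In R 4.3.3, edgeR 4.0.16 and DESeq2 1.42.0 gave alternative scalings of rounded expected counts, with no test.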

Additional observations from a re-analysis of the deposited data

How the results depend on the processing

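The number of the 10 genes read in both libraries was 6 with posterior mean estimates, with a minimum of 10 counts or any value above 0, and with the deeper library thinned. The number at least 4-fold apart was 3 under every other scaling, pseudocount, filter and thinning tried, including edgeR TMM and DESeq2 size factors, and 4 at a 2-fold threshold. The summed level ranged from 794 TPM with the deposited total, spike-ins kept, to 885 TPM without mitochondrial genes, and from 585 to 1112 TPM with 1 library left out. List genes read in both numbered 39 at a minimum of 10 counts and 45 with posterior means. The mean level of Dclre1c was 0.544 TPM with posterior means against 0.123 as reported, and its posterior means in replicate 1 carried 0 estimated counts. Across the alternatives the log2 ratio ran from 2.35 to 2.68 for Lig4, from 0.88 to 0.95 for Rag1, from 0.90 to 1.34 for Xrcc6, from 1.14 to 1.28 for Xrcc5, from -0.67 to -0.55 for Rag2 and from -0.35 to -0.30 for Dntt, so no sign changed. For genes at 0 in replicate 1 it followed the pseudocount, from 3.39 to 8.89 for Nhej1 and from 2.57 to 7.96 for Xrcc4. No paired analysis was possible because there is 1 group. With 2 libraries, the low counts of Prkdc and Dclre1c limit what can be said of them.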
